A study of Mus musculus with 4 samples.

Results

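The 10 genes described here encode enzymes and 1 regulator of glycolysis: the hexokinases Hk1, Hk2 and Hk3, the glucose-6-phosphate isomerase Gpi1, the phosphofructokinases Pfkl and Pfkp, the regulatory enzyme Pfkfb3, the aldolase Aldoa, the phosphoglycerate kinase Pgk1 and the lactate dehydrogenase subunit Ldha. They were taken by symbol from a table of 55487 genes, and all 10 were found and passed the filter on low counts. RNA was measured by poly(A) sequencing in myeloid cells sorted from mouse livers as CD45+ CD3- CD11c- CD11b+. In LysM-Cre IL10R fl/fl, a floxed interleukin-10 receptor gene is exposed to Cre made under control of the lysozyme gene, a driver used for granulocytes, monocytes and macrophages (n = 2 libraries). The controls, LysM-Cre IL10R wt/wt, carry the same Cre with an unmodified receptor gene (n = 2 libraries). The labels give no age, sex, treatment or tumour state of the mice, nor how many animals each library holds. The p-values therefore rest on the spread between these libraries, with variance estimates that edgeR shares across genes, and not on a known number of animals.

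Glycolysis splits glucose into pyruvate and yields ATP without oxygen, and lactate dehydrogenase turns pyruvate into lactate. Hexokinase and phosphofructokinase catalyse its committed and most tightly controlled steps, and several of its genes are known targets of the transcription factors HIF-1 and Myc. Neutrophils rely largely on glycolysis, inflammatory macrophages raise it on activation, and in mouse bone marrow macrophages IL-10 is known to restrain it. Levels below are counts over library size (CPM), scaled by the trimmed mean of M-values (TMM), a log2 fold change is fl/fl over wt/wt, and a gene is said to have passed when its adjusted p over all 13496 tested genes was under 0.05 in edgeR's quasi-likelihood test. In bulk RNA, fewer cells of a type and less RNA per cell cannot be told apart.

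Total counts were 17750343 and 17154042 in the fl/fl pair, and 22694136 and 26441014 in the wt/wt pair, library 1 before library 2 here and below. Each member had between 1008 and 32164 counts in every library. Il10ra, the ligand-binding receptor chain, held 69.3 and 14.8 CPM in the fl/fl libraries, against 1111 and 993 CPM in wt/wt (−4.64 on the log2 scale, with −6.18 when fl/fl 1 was left out and −3.92 when fl/fl 2 was). Over all tested genes, 2.69% were higher in fl/fl and 3.16% lower. Neutrophil and granulocyte precursor markers were higher in fl/fl: 10 of 12 and 7 of 8 rose. Their summed levels were 37269 and 17162 CPM (neutrophil) and 1675 and 552 CPM (precursor) across the fl/fl pair, against 3188 and 3984 CPM and 62.6 and 53.6 CPM in the wt/wt pair. The 8 markers of cycling cells summed to 834 and 281 CPM in the fl/fl libraries and 76.3 and 46.6 CPM in wt/wt, and 7 of them rose. Of 9 Kupffer cell and macrophage markers, 5 were tested and 3 fell. All 9 summed to 297 and 207 CPM in the fl/fl libraries and 912 and 900 CPM in wt/wt. The resident Kupffer cell markers Clec4f, Vsig4, Timd4 and Marco stayed below 1.20 CPM in every library. Monocyte markers summed to 13892 and 6599 CPM in the fl/fl libraries and 9288 and 7762 CPM in wt/wt, with 1 of 6 lower. T cell markers reached at most 1.57 CPM in sum and hepatocyte markers at most 88.5 CPM. The other lists summed to between 1.33 CPM (stellate cell) and 514 CPM (eosinophil and basophil) in any library. Eosinophil and basophil markers summed to 514 and 345 CPM in the fl/fl libraries and 89.6 and 139 CPM in wt/wt. NK cell markers were at 9.38 and 15.4 against 2.47 and 2.62 CPM, and erythroid markers at 36.7 and 95.2 against 20.8 and 20.4. Platelet and megakaryocyte markers went the other way, at 5.30 and 10.9 against 12.0 and 13.4 CPM. Dendritic cell, B cell, endothelial and stellate cell sums overlapped between the genotypes. Siglech, Lrat and Reln had no count in any library. Counts of Xist, the RNA of X inactivation, were 4298 in fl/fl 2, with 0 elsewhere. The Y-linked gene Ddx3y, chosen with its values in view, had 1184 and 0 counts in the fl/fl pair, against 2132 and 2802 counts in wt/wt. By these genes fl/fl 2 is female and the other 3 libraries are male, so the fl/fl libraries are not from the same animal, their spread includes a difference in sex, and sex is not balanced between the genotypes. The part of these marker and library differences in the results below was not tested.

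Promoters are shown for 6 members to set genes that fell (Hk2 and Pfkl) beside genes with level changes near 0 (Hk3 and Gpi1) and beside Pgk1 and Ldha, textbook targets of HIF-1. Each line is the 250 bases before a RefSeq start site (GRCm38.p6), 5′ to 3′ on the gene's strand, in lower case with every ACGTG, the core that HIF-1 binds, or its reverse complement CACGT in capitals.
Hk2 (chr6:82774455-82774704, minus strand): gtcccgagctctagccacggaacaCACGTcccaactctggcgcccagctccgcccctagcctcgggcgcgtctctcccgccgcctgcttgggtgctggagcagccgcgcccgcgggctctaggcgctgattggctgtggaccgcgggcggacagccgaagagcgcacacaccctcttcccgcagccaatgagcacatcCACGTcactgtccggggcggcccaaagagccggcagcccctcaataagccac
Hk3 (chr13:55021386-55021635, minus strand): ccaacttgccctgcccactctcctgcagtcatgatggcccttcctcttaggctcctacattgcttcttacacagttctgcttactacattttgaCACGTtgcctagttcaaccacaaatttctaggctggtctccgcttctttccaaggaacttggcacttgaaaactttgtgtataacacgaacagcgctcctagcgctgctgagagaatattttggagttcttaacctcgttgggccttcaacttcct
Gpi1 (chr7:34230337-34230586, minus strand): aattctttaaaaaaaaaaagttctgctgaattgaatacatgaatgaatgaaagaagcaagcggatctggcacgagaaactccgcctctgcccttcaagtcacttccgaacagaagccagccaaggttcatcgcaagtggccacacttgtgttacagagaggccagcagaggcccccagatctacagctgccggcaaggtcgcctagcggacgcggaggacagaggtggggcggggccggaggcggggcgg
Pfkl (chr10:78009808-78010057, minus strand): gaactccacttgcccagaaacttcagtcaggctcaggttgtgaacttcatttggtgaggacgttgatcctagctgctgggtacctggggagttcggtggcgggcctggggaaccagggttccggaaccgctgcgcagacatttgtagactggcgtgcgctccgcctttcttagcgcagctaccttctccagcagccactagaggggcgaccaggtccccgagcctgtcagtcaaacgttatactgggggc
Pgk1 (chrX:106186850-106187099, plus strand): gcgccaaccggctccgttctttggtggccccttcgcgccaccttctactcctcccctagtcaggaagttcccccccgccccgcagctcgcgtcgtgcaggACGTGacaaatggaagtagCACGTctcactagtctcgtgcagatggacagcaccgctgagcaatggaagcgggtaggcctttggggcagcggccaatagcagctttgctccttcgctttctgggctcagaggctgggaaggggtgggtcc
Ldha (chr7:46845554-46845803, plus strand): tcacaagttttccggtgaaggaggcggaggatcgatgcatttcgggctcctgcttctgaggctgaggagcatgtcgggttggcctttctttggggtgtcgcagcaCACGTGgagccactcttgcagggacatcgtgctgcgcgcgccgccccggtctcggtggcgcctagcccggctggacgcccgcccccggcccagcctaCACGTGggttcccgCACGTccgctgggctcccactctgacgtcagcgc

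ACGTG was found in the 250 bases before at least 1 start site of 6 of the 10 members: Hk2, Hk3, Pfkfb3, Aldoa, Pgk1 and Ldha. It was absent from those letters in Hk1, Gpi1, Pfkl and Pfkp. Of the 15 start sites that RefSeq gives these members, 8 had it, and so did 16.6% of 32851 promoters of the same length. The 8 count 1 site of Aldoa at both of the starts 126799178 and 126799254, whose windows overlap. Ldha had 5 matches at its upstream start, 4 of which belong to the palindrome CACGTG, the E-box core that Myc binds, which 6.02% of promoters held. CACGTG was found in 2 of the 10 members, Ldha and Pfkfb3, and lay 53 bases before the Pfkfb3 start 11502090. Hk2 had ACGTG matches 226 and 52 bases before its start, Pgk1 had them 150 and 131 bases before, and Hk3 had 1 match 156 bases before. The other HIF-1 core, GCGTG, was found at 5 of the 15 starts, in Hk1, Pfkl, Pfkp, Pfkfb3 and Ldha, and in 28.2% of all promoters. ACGTG alone thus did not split the members by their change: Hk3 held it and Pfkl did not. Pfkl held the other core, GCGTG, and so did Hk1, whose genotypes overlapped, while Gpi1 held neither core. A match is a description of the sequence and no evidence of binding.

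Of the 10 members, 4 fell in the fl/fl pair and 0 rose: Hk2, Pfkl, Pfkp and Pfkfb3. Of all tested genes, 3.16% were lower in the fl/fl pair and 2.69% higher, 5.85% in all. Aldoa, Pgk1 and Ldha did not pass, with all fl/fl libraries below all wt/wt libraries, and Hk1, Hk3 and Gpi1 overlapped between the genotypes. In all, 7 of 10 members had separate groups with fl/fl below, as did 26.3% of tested genes. The median log2 fold change of the 10 was −0.93, against 0.02 over all tested genes. Together the members took 0.436% and 0.287% of the counts in the fl/fl pair and 0.598% and 0.568% in the wt/wt pair. The 4 calls rest on both wt/wt libraries: edgeR called no member, and no gene at all, without wt/wt 1 or without wt/wt 2. The median log2 fold change of the members was then −0.90 and −0.94, against −0.01 and 0.04 over all tested genes. DESeq2 on all 4 libraries called 7 members lower, and 834 genes lower over the whole table.

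**Figure D1:**
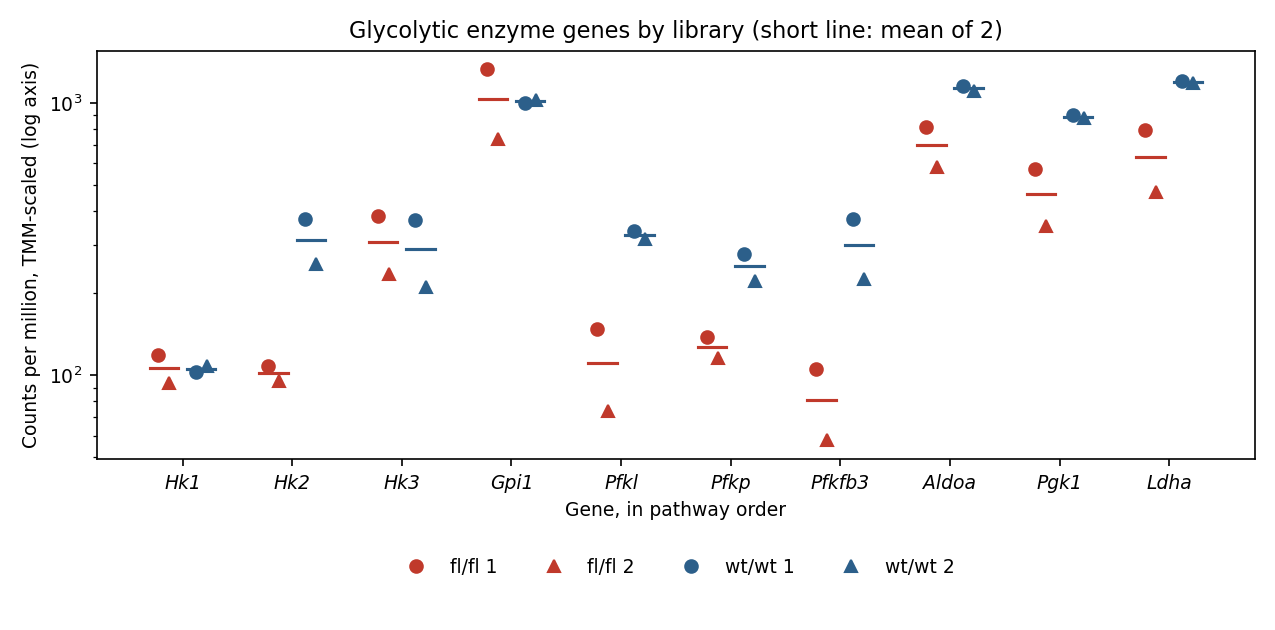
TMM-scaled CPM of the 10 genes on a log axis, by library; circles are library 1, triangles library 2, red fl/fl and blue wt/wt, and short lines are means of 2. Both fl/fl points lie below both wt/wt points in 7 genes, and fl/fl 1 lies above fl/fl 2 in all 10.

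At the first step, phosphorylation of glucose, Hk2 fell while Hk1 and Hk3 did not pass. Hk2 (ENSMUSG00000000628, GRCm38 chromosome 6, 82725025 to 82774454, minus strand), the inducible hexokinase that binds mitochondria, held 108 and 95.1 CPM across the fl/fl pair, against 374 and 255 CPM in the wt/wt pair. Both fl/fl libraries were low and close to each other, and the lower wt/wt library was still more than 100 CPM above them. Hk2 fell 3.10-fold (log2 fold change −1.63 ± 0.22, SE, n = 2 each; adjusted p = 0.0164, edgeR), and its log2 fold change was −1.88 to −1.38 with single libraries left out.

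Hk3 (ENSMUSG00000025877, chromosome 13, 55005985 to 55021385, minus strand), the hexokinase known from myeloid cells and granulocytes, held 384 and 234 CPM in the fl/fl libraries and 370 and 211 CPM in wt/wt. Library 1 was higher than library 2 in both genotypes, by 1.64-fold in the fl/fl pair and 1.75-fold in wt/wt. The groups overlapped, with a log2 fold change of 0.09 (95% interval −0.69 to 0.87; adjusted p = 0.915, edgeR), so a change in either direction of more than 1.5-fold is not excluded by the interval. Its sign turned when fl/fl 1 (−0.35) or wt/wt 2 (−0.26) was left out. Hk1 (ENSMUSG00000037012, chromosome 10, 62268855 to 62379908, minus strand), the broadly expressed isozyme, held 118 and 93.6 CPM in the fl/fl libraries and 103 and 108 CPM in wt/wt. All 4 libraries of Hk1 lay within a narrow range (log2 fold change 0.01, 95% interval −0.40 to 0.42; adjusted p = 0.990, edgeR), and its sign changed with the scaling (−0.01 with library size only).

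Isozymes were compared per kilobase of merged exons. Hk3 was the main hexokinase transcript in all 4 libraries, at 76.5% and 70.3% of the summed hexokinase level in the fl/fl pair and 57.4% and 50.9% in the wt/wt pair. The share of Hk2 was 13.3% and 17.6% across the fl/fl pair, against 35.8% and 37.9% in wt/wt, and the groups were apart by more than their spread (15.5 ± 3.04% against 36.8 ± 1.52%, SD, n = 2 each). The share of Hk1 was 10.2% and 12.1% in the fl/fl pair and 6.87% and 11.2% in wt/wt, which overlapped. Hk3 thus stood at 5.75 and 3.99 times the Hk2 level in the fl/fl pair, and at 1.60 and 1.34 times in wt/wt. The summed hexokinase level was 136 and 90.5 CPM per kilobase in the fl/fl pair and 175 and 113 in wt/wt, so that the sums overlapped while Hk2 fell. With 2 libraries against 2 an exact two-sided permutation test cannot give a p below 0.333, so none of the shares and ratios could pass, and those with separate groups reached that value.

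**Figure D2:**
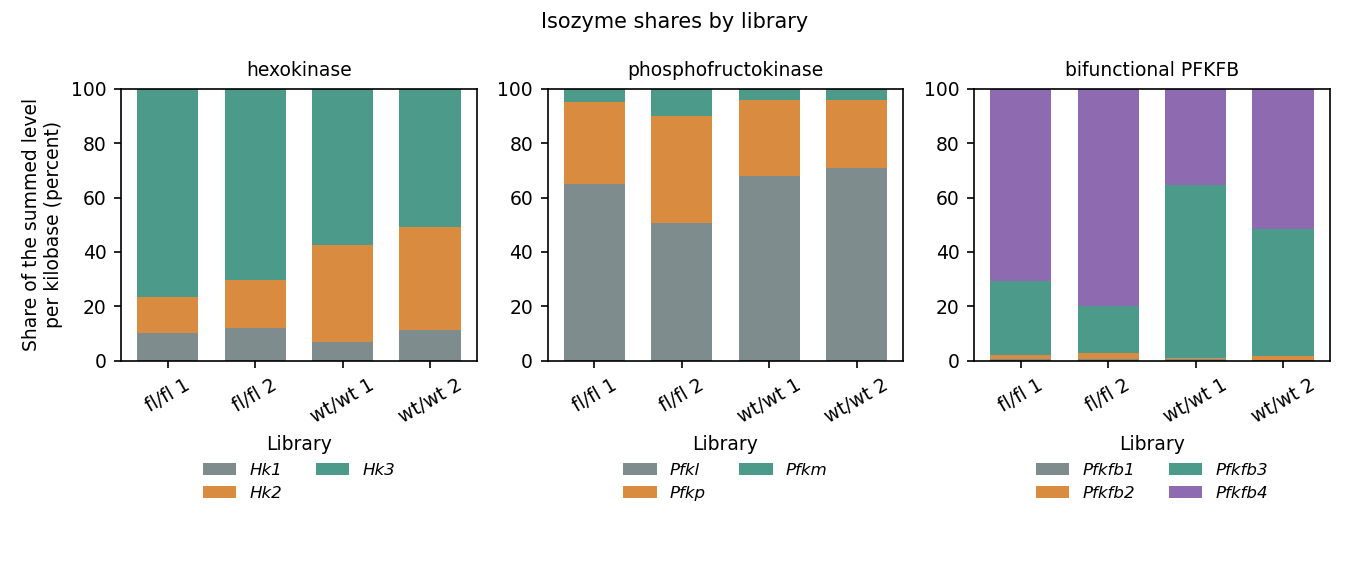
Share of each isozyme in the summed level per kilobase of its step, in percent, for each library (fl/fl left, wt/wt right). The Hk2 and Pfkfb3 segments are smaller in both fl/fl libraries than in both wt/wt libraries, and Hk3 and Pfkfb4 fill most of the difference.

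Gpi1 (ENSMUSG00000036427, chromosome 7, 34201330 to 34230336, minus strand) interconverts glucose 6-phosphate and fructose 6-phosphate, which makes it shared by glycolysis and the return flow from the pentose phosphate pathway. It held 1327 and 736 CPM in the fl/fl libraries and 996 and 1028 CPM in wt/wt. The fl/fl libraries lay on either side of the wt/wt pair, and the mean was 1032 ± 418 CPM in the fl/fl libraries and 1012 ± 22.1 CPM in wt/wt (SD, n = 2 each). The log2 fold change was 0.03 (95% interval −0.63 to 0.69; adjusted p = 0.970, edgeR), with −0.50 when fl/fl 1 was left out and 0.40 when fl/fl 2 was, and it turned to −0.01 with upper quartile scaling. Of its exonic length 11.5% lies opposite an antisense gene, Gm26762, whose reads cannot be told apart if the counting ignored strand. Its processed copy Gm1840 had 93 and 63 counts in the fl/fl pair and 56 and 99 in wt/wt.

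Both phosphofructokinase genes fell. Pfkl (ENSMUSG00000020277, chromosome 10, 77986947 to 78010083, minus strand), the liver-type subunit that is also the main form in many leukocytes, held 148 and 74.0 CPM in the fl/fl libraries, against 337 and 316 CPM in wt/wt. Here fl/fl 1 was 2.00-fold above fl/fl 2, while the wt/wt pair was nearly level. Pfkl fell 2.94-fold (log2 fold change −1.56 ± 0.31, SE, n = 2 each; adjusted p = 0.0387, edgeR), and the log2 value was −2.18 without fl/fl 1, or −1.14 without fl/fl 2.

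Pfkp (ENSMUSG00000021196, chromosome 13, 6579768 to 6648777, minus strand), the platelet-type subunit, held 139 and 116 CPM in the fl/fl libraries and 279 and 222 CPM in wt/wt. The groups were separate with little spread in fl/fl, and Pfkp fell 1.97-fold (log2 fold change −0.98 ± 0.19, SE, n = 2 each; adjusted p = 0.0345, edgeR). Without wt/wt 1 it passed neither in edgeR (adjusted p = 0.243) nor in DESeq2 (adjusted p = 0.230), and its adjusted p ranged from 2.00e-05 to 0.243 over all alternatives. The muscle-type Pfkm, no member, held only 5.53 and 7.30 CPM in the fl/fl libraries and 10.4 and 8.92 CPM in wt/wt and did not pass. Summed per kilobase, phosphofructokinase stood at 34.1 and 21.9 CPM per kilobase across the fl/fl pair, against 74.4 and 66.6 in wt/wt, which is 0.397 of the wt/wt mean. Pfkl made up 64.9% and 50.6% of that sum in the fl/fl pair and 67.8% and 71.1% in wt/wt.

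Pfkfb3 (ENSMUSG00000026773, chromosome 2, 11471433 to 11554077, minus strand) makes fructose bisphosphate of the regulatory kind, the strongest allosteric activator of phosphofructokinase, and its isozyme is known for high kinase activity. It held 105 and 57.5 CPM in the fl/fl libraries, against 376 and 226 CPM in wt/wt. Both pairs were spread, by 1.82-fold in the fl/fl pair and 1.66-fold in wt/wt, yet the higher fl/fl library was below the lower wt/wt library. Pfkfb3 fell 3.70-fold (log2 fold change −1.89 ± 0.35, SE, n = 2 each; adjusted p = 0.0312, edgeR; −2.42 without fl/fl 1 and −1.51 without fl/fl 2).

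Its relative Pfkfb4 did not pass. Pfkfb4 held 174 and 170 CPM in the fl/fl libraries and 136 and 160 CPM in wt/wt (log2 fold change 0.22, 95% interval −0.16 to 0.60; adjusted p = 0.489, edgeR). Pfkfb4 was thus the main transcript of the 4 isozymes in both fl/fl libraries and in wt/wt 2. It made up 70.6% and 80.0% of their summed level per kilobase in the fl/fl pair, against 35.5% and 51.5% in wt/wt. Pfkfb3 took 27.4% and 17.4% in the fl/fl pair and 63.4% and 46.8% in wt/wt, and Pfkfb1 and Pfkfb2 together the small rest.

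Aldoa, Pgk1 and Ldha were lower in both fl/fl libraries without passing. Aldoa (ENSMUSG00000030695, chromosome 7, 126795234 to 126800751, minus strand), the aldolase that splits the hexose into triose phosphates, held 815 and 582 CPM in the fl/fl libraries, against 1157 and 1101 CPM in wt/wt (log2 fold change −0.69 ± 0.21, SE; adjusted p = 0.106, edgeR). The genotypes did not overlap, and the fl/fl pair was wider apart than the wt/wt pair. A second Ensembl identifier with the symbol Aldoa, which holds at most 21 counts in a library, was left out. Aldoa made up between 97.7% and 99.0% of the summed aldolase level in every library.

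Pgk1 (ENSMUSG00000062070, chromosome X, 106187100 to 106203699, plus strand) catalyses the first ATP-forming step. It held 569 and 353 CPM in the fl/fl libraries, against 900 and 879 CPM in wt/wt. The wt/wt pair differed by only 1.02-fold and the fl/fl pair by 1.62-fold (log2 fold change −0.95 ± 0.24, SE; adjusted p = 0.0763, edgeR). Pgk1 is X-linked, and fl/fl 2, the library with Xist counts, was the lower of the fl/fl pair; leaving out fl/fl 2 gave −0.64 and leaving out fl/fl 1 gave −1.37, and the part of sex was not tested. Of the 50-base windows of its transcripts, 53.9% also occur in other genes, mainly the processed copy Pgk1-rs7, which itself held 4 to 7 counts in each library; how reads that fit several genes were counted is not given in the sources used here.

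Ldha (ENSMUSG00000063229, chromosome 7, 46841475 to 46855627, plus strand), the subunit that favours lactate formation, held 797 and 469 CPM in the fl/fl libraries, against 1203 and 1185 CPM in wt/wt. The wt/wt libraries were nearly identical, and both fl/fl libraries were below them (log2 fold change −0.92 ± 0.26, SE; adjusted p = 0.0948, edgeR). DESeq2 called Ldha, Pgk1 and Aldoa lower (adjusted p = 0.0114, 0.00496 and 0.0242), and limma-voom did not (adjusted p = 0.0747, 0.0593 and 0.0879). Ldhb, the subunit that favours lactate use, was far lower, and Ldha made up 92.8% and 85.8% of the summed level per kilobase in the fl/fl pair and 92.9% and 92.7% in wt/wt.

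**Figure D3:**
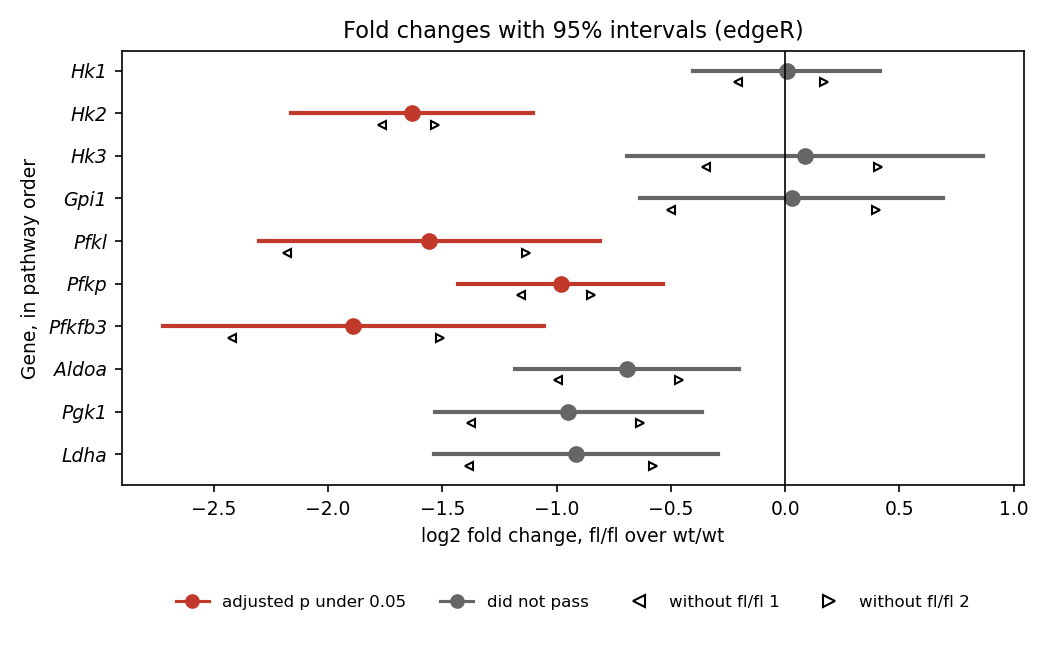
Log2 fold changes, fl/fl over wt/wt, of the 10 genes in pathway order, with 95% intervals from edgeR; red marks the 4 with an adjusted p under 0.05, and open triangles give the value without fl/fl 1 or fl/fl 2. The values run from −1.89 (Pfkfb3) to 0.09 (Hk3), and only the intervals of Hk1, Hk3 and Gpi1 among the 10 cross 0.

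The order of the members' levels shifted little outside the genes that fell. Per kilobase, Aldoa, Pgk1, Ldha, Gpi1 and Hk3 were the highest 5 in both genotypes. They averaged 240, 205, 191, 160 and 83.9 CPM per kilobase in the fl/fl pair and 388, 396, 361, 157 and 79.0 in wt/wt. The values of the first 4 overlapped across the fl/fl libraries, but within each library Gpi1 was the lowest of them. It stood at 206 and 114 CPM per kilobase in the fl/fl pair, with Ldha next at 241 and 142. The gap was wider in wt/wt, with Gpi1 at 154 and 159 and Ldha at 363 and 358. Of the remaining 5, Pfkp was the lowest in fl/fl, at 9.48 CPM per kilobase, and Hk1 the lowest in wt/wt, at 12.3.

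In all 10 members fl/fl 1 exceeded fl/fl 2, by 1.14-fold (Hk2) to 2.00-fold (Pfkl), while the wt/wt ratio of library 1 to library 2 ran from 0.952 (Hk1) to 1.75 (Hk3). The fl/fl library with more of the neutrophil, precursor and cycling markers was thus also the one nearer to wt/wt in the members that were lower. Without fl/fl 1 the median log2 fold change of the members was −1.26, and without fl/fl 2 it was −0.61.

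Among 22 other glycolytic enzymes, 17 were tested, 2 fell, 1 rose and 14 did not pass, with a median log2 fold change of −0.13. By comparison, 3.16% of all tested genes fell and 2.69% rose. Tpi1, the triose phosphate isomerase, fell to 327 and 172 CPM in the fl/fl libraries, against 799 and 718 CPM in wt/wt (log2 fold change −1.60, adjusted p = 0.0323, edgeR). Aldoc, a minor aldolase here, fell to 3.67 and 2.51 CPM in the fl/fl libraries, against 21.2 and 16.9 CPM in wt/wt (−2.62, adjusted p = 0.0132, edgeR). Both were separate from wt/wt by a wide margin. Adpgk, an ADP-dependent glucokinase that phosphorylates glucose at the expense of ADP, rose to 424 and 194 CPM in the fl/fl libraries, against 61.7 and 56.9 CPM in wt/wt (2.38, adjusted p = 0.0193, edgeR; 1.68 without fl/fl 1). Adpgk acts at the same step as Hk2, which fell.

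The abundant enzymes of lower glycolysis did not pass. In Eno1, Pkm and Gapdh both fl/fl libraries lay below both wt/wt libraries, as in 26.3% of tested genes. DESeq2 called Eno1 lower (adjusted p = 0.0351) but not Pkm or Gapdh (adjusted p = 0.327 and 0.377). Eno1, the enolase, held 1287 and 939 CPM in the fl/fl libraries and 1637 and 1863 CPM in wt/wt (log2 fold change −0.65, adjusted p = 0.124, edgeR). Pkm, the pyruvate kinase of most tissues, held 2224 and 1428 CPM in the fl/fl libraries and 2578 and 2352 CPM in wt/wt (−0.43, adjusted p = 0.351, edgeR), and Gapdh, the triose phosphate dehydrogenase, held 1816 and 852 CPM in the fl/fl libraries and 1994 and 1851 CPM in wt/wt (−0.53, adjusted p = 0.416, edgeR). In Gapdh the fl/fl 1 library was close to wt/wt and fl/fl 2 far below, so that the log2 value was −1.21 without the first and −0.08 without the second. Other genes share 24.7% of the 50-base windows of Gapdh and 25.8% of those of Pkm, and Eno1 has such copies too.

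At the exit of the pathway, 12 of 13 tested genes of pyruvate fate did not pass (median log2 fold change 0.14). In this list 1 gene fell, as did 3.16% of all tested genes. The one that fell was Pdk1, the kinase that shuts off pyruvate dehydrogenase, at 20.4 and 16.9 CPM in the fl/fl libraries, against 74.5 and 71.0 CPM in wt/wt (−1.96 ± 0.18, SE; adjusted p = 0.00879, edgeR). Both pairs were tight and far apart. Pdk3, another such kinase, held 43.0 and 30.8 CPM in the fl/fl libraries and 27.09 and 25.97 CPM in wt/wt (0.48, adjusted p = 0.253, edgeR). Mpc2, a subunit of the mitochondrial pyruvate carrier, stood at 71.4 and 76.0 CPM in the fl/fl libraries and 47.7 and 45.0 CPM in wt/wt (0.67, adjusted p = 0.0600, edgeR). The dehydrogenase genes Pdhb and Dld were at −0.03 and 0.30 without passing.

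The pentose phosphate pathway branches off after hexokinase and makes NADPH. All 8 of its genes had both fl/fl libraries above both wt/wt libraries, as did 28.1% of tested genes, with a median log2 fold change of 0.53, but none passed in edgeR; 5 had an unadjusted p under 0.05, as did 22.5% of tested genes. DESeq2 called 3 of them higher and limma-voom called 0. G6pdx, its first enzyme, held 403 and 179 CPM in the fl/fl libraries and 96.2 and 102 CPM in wt/wt (1.55, adjusted p = 0.0541, edgeR; 0.82 without fl/fl 1 and 2.03 without fl/fl 2). G6pdx is X-linked, and fl/fl 1, the library without Xist counts, was the higher. Taldo1, the transaldolase, held 1217 and 1277 CPM in the fl/fl libraries and 695 and 855 CPM in wt/wt (0.69, adjusted p = 0.0773, edgeR), and Rpia, Pgls and Pgd were at 0.84, 0.49 and 0.46. Per kilobase, G6pdx stood at 5.90 and 5.25 times the Pfkl level across the fl/fl pair, against 0.619 and 0.700 times in wt/wt.

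Of 11 tested genes of gluconeogenesis and glycogen, 1 rose, as did 2.69% of all tested genes, and 10 did not pass (median 0.29). Fbp1, the phosphatase that opposes phosphofructokinase, stood at only 2.45 and 5.14 CPM in the fl/fl libraries, against 0.494 and 0.626 CPM in wt/wt (2.74, adjusted p = 0.0487, edgeR; not called by limma-voom, adjusted p = 0.0866; 2.12 without fl/fl 2). Pygl, a glycogen phosphorylase, held 747 and 398 CPM in the fl/fl libraries and 198 and 310 CPM in wt/wt (1.17, adjusted p = 0.0994, edgeR). Pck1, Pygm and Ugp2 were at 2.24, −0.75 and −0.04 and did not pass. DESeq2 called 3 of the 11 higher: Fbp1, Pygl and Pck1 (adjusted p = 0.00290, 0.00907 and 0.0289).

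Of 11 tested regulators of glycolytic genes, 5 fell, 0 rose and 6 did not pass, with a median log2 fold change of −0.88. The shares over all tested genes were 3.16% lower and 2.69% higher. Hif1a, the oxygen-regulated subunit of HIF-1, held 158 and 129 CPM in the fl/fl libraries, against 345 and 296 CPM in wt/wt (−1.16 ± 0.18, SE; adjusted p = 0.0215, edgeR). Egln3, a prolyl hydroxylase that marks HIF subunits for degradation, held 21.0 and 6.91 CPM in the fl/fl libraries, against 133 and 114 CPM in wt/wt. The fl/fl pair was 3.04-fold apart and still far below wt/wt (−3.14, adjusted p = 0.0197, edgeR; −4.19 without fl/fl 1 and −2.54 without fl/fl 2). Its relative Egln1 fell by 1.18 on the log2 scale (adjusted p = 0.0193, edgeR), and Vhl, which recognises the marked subunits and was chosen with its values in view, fell by 0.88 (adjusted p = 0.0364, edgeR). The genes that fell included Hif1a as well as Egln3, Egln1 and Vhl, whose products limit HIF, and HIF activity itself was not tested. Myc held 11.4 and 8.10 CPM in the fl/fl libraries, against 29.8 and 29.4 CPM in wt/wt (−1.61, adjusted p = 0.0193, edgeR). Mlxip, a glucose-sensing factor, overlapped between the genotypes (−0.24, adjusted p = 0.509, edgeR).

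Of 16 tested hypoxia-induced genes outside the enzymes, 9 fell, 0 rose and 7 did not pass, with a median log2 fold change of −1.45. Among all tested genes, 3.16% fell and 2.69% rose. Vegfa, the endothelial growth factor, held 103 and 57.8 CPM in the fl/fl libraries, against 719 and 502 CPM in wt/wt (−2.93, adjusted p = 0.0120, edgeR). P4ha1, a collagen prolyl hydroxylase, Bnip3, a mitophagy receptor, and Ak4, a mitochondrial adenylate kinase, were at −1.99, −2.35 and −2.67 (adjusted p = 0.00879, 0.00879 and 0.0167, edgeR). Slc2a1, the glucose transporter GLUT1, was chosen with its values in view and held 157 and 79.8 CPM in the fl/fl libraries, against 385 and 301 CPM in wt/wt (−1.54, adjusted p = 0.0431, edgeR; −2.14 without fl/fl 1). Slc16a3, the lactate exporter MCT4, overlapped between the genotypes, at 359 and 224 CPM in the fl/fl libraries and 350 and 364 CPM in wt/wt (−0.29, adjusted p = 0.536, edgeR). In these lists, as among the members, no gene kept an edgeR call without wt/wt 1 or wt/wt 2. The median log2 fold change of the hypoxia-induced genes was then −1.48 and −1.53.

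**Figure D4:**
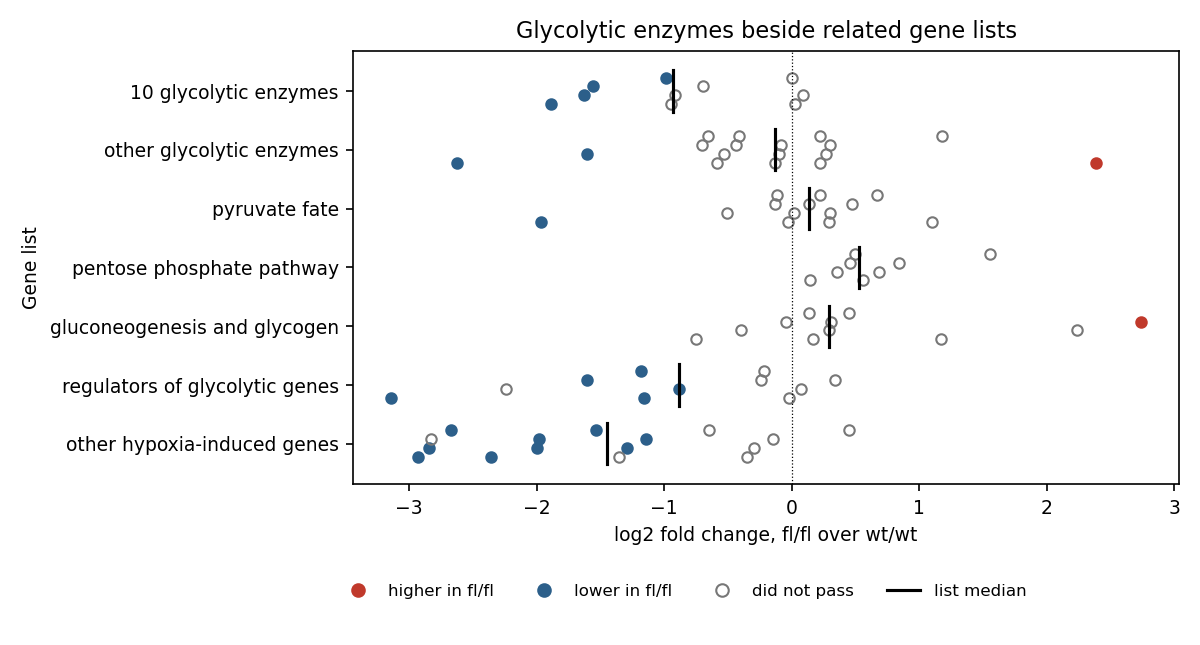
Log2 fold changes, fl/fl over wt/wt, of the tested genes in 7 lists; filled red points rose, filled blue points fell, open points did not pass and the bar is the list median. The medians of the 10 glycolytic enzymes, the regulators and the other hypoxia-induced genes are −0.93, −0.88 and −1.45, and all 8 points of the pentose phosphate pathway lie above 0.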

How the data were processed

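Poly(A) RNA of sorted liver myeloid cells was sequenced in 4 libraries. The submitters' processing notes list STAR 2.5.0, Trimmomatic 0.33, FastQC 0.11.5 and the build GRCm38. How reads were assigned to genes, by which tool, strand setting and gene models, is not given in the sources used here. The authors deposited raw counts per Ensembl gene, whole numbers with no normalization. GENCODE M21 (GRCm38) gave symbols, positions and exon lengths for 55227 of 55487 identifiers; promoters came from RefSeq (GRCm38.p6).

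edgeR 4.0.16 in R 4.3.3 was run on the whole table: filterByExpr with a minimum count of 10 (13496 genes of 22696 with any count), TMM scaling, the quasi-likelihood F test without covariates, and Benjamini-Hochberg adjustment, with 0.05 as the threshold. The prior count was 0.125, each SE was taken by dividing the size of the log2 fold change by the root of its F, and p-values are two-sided. The steps were tested on simulated data. The biological coefficient of variation was 25.5%. Levels per kilobase are TMM-scaled CPM over the merged exon length, which counts exons of unused isoforms too. Alternatives were other scalings, no filter, DESeq2 1.42.0, a prior count of 5, voom in limma 3.58.1, the replicate number as a block, TPM, transcript length and leaving out each library; DESeq2 on 3 libraries and summing both Aldoa identifiers were added after the data were seen. The members, lists and tests were chosen with earlier results of these data known. Named genes are all members, Il10ra, and from each related list the 4 with the smallest p and the 2 most expressed. Pfkfb4, Pfkm and Ldhb are named beside these as isozymes of members, and Vhl, Slc2a1, Ddx3y, Xist, copies of members and single markers were named outside this rule, with values in view. Intervals rest on the spread between 2 libraries a group, with variance estimates that edgeR shares across genes.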

Additional observations from a re-analysis of the deposited data

How the results depend on the processing

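Of 161 refits of the 10 members' fold changes, 114 kept direction and side of the threshold, 16 newly passed, 9 no longer passed and 22 turned sign, all of the last in Hk1, Hk3 and Gpi1. The refits with a prior count of 5 left each member's adjusted p as in the main fit. They could therefore not change side of the threshold. Outside the fits that left out a library, Hk1 turned to −0.0082 (RLE), −0.0124 (library size only), −0.0232 (upper quartile), −0.0058 (no filter), −0.0082 (DESeq2) and −0.0027 (limma-voom, and the replicate block), and Gpi1 to −0.0062 (upper quartile), −0.0337 (limma-voom) and −0.0338 (replicate block). The main values were 0.0064 and 0.0278. With single libraries left out, Hk1 ran from −0.21 to 0.17, Hk3 from −0.35 to 0.50 and Gpi1 from −0.50 to 0.40; the DESeq2 values at those settings were −0.20 and −0.0436 (Hk1), −0.34 and −0.28 (Hk3) and −0.49 and −0.0074 (Gpi1) where they turned.

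Members called lower numbered 4, against 7 with no filter, 7 with DESeq2, 6 with the replicate block, and 0 to 7 with single libraries left out (3 to 7 in DESeq2). Members called higher were 0 in every setting run. Over all genes, 363 were higher and 427 lower, against 1017 and 1071 with no filter, 784 and 834 with DESeq2, 602 higher with the replicate block, and 0 to 811 higher and 0 to 666 lower with single libraries left out (in DESeq2 222 to 665 lower, with 654 without fl/fl 1, and up to 725 higher). The zeros come without wt/wt 1 or wt/wt 2, where only the fl/fl libraries give a spread. With no filter the adjusted p of Hk2 was 5.27e-14 (edgeR), against 0.0164 in the main fit. Its log2 fold change hardly moved, at −1.64 against −1.63, and the cause of the smaller p was not tested. The replicate numbers were not taken as pairs: the deviations of same-numbered libraries had a correlation of 0.0215.

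Of 120 refits of step sums and isozyme shares, 4 turned sign: the hexokinase sum ran from −0.67 to 0.0073 (log2 ratio), the Hk1 share from −0.0757 to 4.27 percentage points and the Aldoa share from −0.51 to 0.75, with −0.0653 without wt/wt 1; the cause was not tested.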
